A study of Homo sapiens with 17 samples.

Results

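The genes described here are 31 genes of glycolysis and of glucose and lactate transport, measured in human stem cell derived cells that were sorted on 2 fluorescent reporters. They were chosen by gene name from the deposited expression table: the glucose transporters SLC2A1, SLC2A3 and SLC2A4, the enzymes from hexokinase to lactate dehydrogenase with their isoforms, the lactate transporters SLC16A1 and SLC16A3, the regulators PFKFB2, PFKFB3, PFKFB4 and PDK1, the bisphosphoglycerate mutase BPGM, and the muscle glycogen genes PYGM and GYS1. All 31 names were found among the 20218 genes of the table, no member was listed at 0 in any library, and all 31 passed the filter on low values that left 14845 genes for testing.

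Glycolysis splits glucose into pyruvate in the cytosol, and lactate dehydrogenase then turns pyruvate into lactate, which monocarboxylate transporters carry across the plasma membrane. Many of its steps can be run by enzymes from several genes, and striated muscle is known for its own forms, such as the enolase ENO3, the phosphoglycerate mutase PGAM2 and the insulin-responsive glucose transporter SLC2A4. Heart muscle draws on fatty acids, glucose and lactate, and fetal heart muscle is known to lean more on glycolysis than adult heart muscle.

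The cells came from the H9 line of human embryonic stem cells, were labelled as sinoatrial-node-like, and carried a GFP reporter for SHOX2, a transcription factor of the sinoatrial node, together with an mCherry reporter whose gene the labels do not name. The 6 groups were GFP+mCherry+ cells at day 25 (libraries 1, 4 and 7) and at day 40 (libraries 10 and 13), GFP-mCherry+ cells at day 25 (libraries 2, 5 and 8) and at day 40 (libraries 11, 14 and 17), and GFP-mCherry- cells at day 25 (libraries 3, 6 and 9) and at day 40 (libraries 12, 15 and 18), with days given as days after directed differentiation. Per the labels' protocols, all cultures began with CHIR99021, BMP4 and activin A. A cardiomyocyte procedure went on with XAV939, and a sinoatrial procedure with cucurbitacin, retinoic acid, SU5402 and XAV939 and then with tyrphostin AG 490 and chidamide. Which procedure each sorted population came from is not stated, all groups share one parental line, and sorted populations are mixtures whose makeup was not measured.

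The sort was visible in the data. SHOX2 had 49.0, 139 and 87.4 FPKM (fragments mapped to a gene, scaled by transcript length and by the mapped total of the library) in the GFP+mCherry+ libraries of day 25 and 58.5 and 90.2 FPKM in those of day 40, against at most 2.41 FPKM in any GFP- library. All 8 sinoatrial markers of a list averaged at least 1 FPKM in both mCherry+ populations at both days, against 5 at day 25 and 6 at day 40 in GFP-mCherry- cells. Their summed level at day 25 was 293 to 520 FPKM in GFP+mCherry+, 106 to 137 FPKM in GFP-mCherry+ and 136 to 176 FPKM in GFP-mCherry- libraries. The sums at day 40 were 302 to 310, 108 to 119 and 91.3 to 149 FPKM in this order. TNNT2, the cardiac troponin T, was lower in GFP+mCherry+ than in GFP-mCherry+ cells, with -1.65 ± 0.46 at day 25 (adjusted p = 0.0207) and -1.46 ± 0.52 at day 40 (adjusted p = 0.0496). NKX2-5, a factor of working heart muscle, had -3.75 ± 0.55 (adjusted p = 0.000553) and -3.35 ± 0.61 (adjusted p = 0.00141). MYH6, the atrial myosin heavy chain, was listed at 0 in library 17 and was not called between the mCherry+ populations, with -0.87 ± 1.62 at day 25 (adjusted p = 0.746) and 2.02 ± 1.81 at day 40 (adjusted p = 0.439). The summed level of 15 cardiomyocyte markers was 6594 to 15577 FPKM in the GFP+mCherry+ libraries of both days, 21382 to 36031 FPKM in the GFP-mCherry+ libraries and 737 to 3415 FPKM in the GFP-mCherry- libraries. The GFP+mCherry+ libraries thus lay between the other populations. The summed level of 10 fibroblast and matrix markers was 10149.5 to 16215 FPKM in the GFP+mCherry+ libraries, 2387 to 9744 FPKM in the GFP-mCherry+ libraries and 9201 to 27659 FPKM in the GFP-mCherry- libraries. Fewer genes were above 0 in libraries 13 and 14, 16493 and 16598, than in the other libraries, which held at least 17108. Library 1 had the lowest cardiomyocyte marker sum of the GFP+mCherry+ libraries. Read depth was not used here.

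The 31 genes together made up 0.921% to 3.00% of a library's summed FPKM. The 17 enzyme genes from hexokinase to pyruvate kinase summed to 4490.2, 7728 and 7851 FPKM in the GFP+mCherry+ libraries of day 25, against 14804, 15326 and 13025 FPKM in the GFP-mCherry+ libraries and 7131, 5921 and 5242 FPKM in the GFP-mCherry- libraries. At day 40 the sums were 5415 and 3559 FPKM in GFP+mCherry+ cells, against 14149, 6814 and 12463 FPKM in GFP-mCherry+ cells and 4595, 3808 and 6751 FPKM in GFP-mCherry- cells. At both days every GFP-mCherry+ library was above every library of both other populations, while the GFP+mCherry+ and GFP-mCherry- libraries overlapped. The cardiomyocyte marker sum was also higher in every GFP-mCherry+ library than in every GFP+mCherry+ library, and it was lowest in the GFP-mCherry- libraries. Its part in the result was not tested. GFP-mCherry+ cells of day 25 had the highest group mean for 20 of the 31 genes and those of day 40 for a further 6. In bulk RNA of sorted cells, fewer cells of a type and less RNA per cell cannot be told apart.

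**Figure D1:**
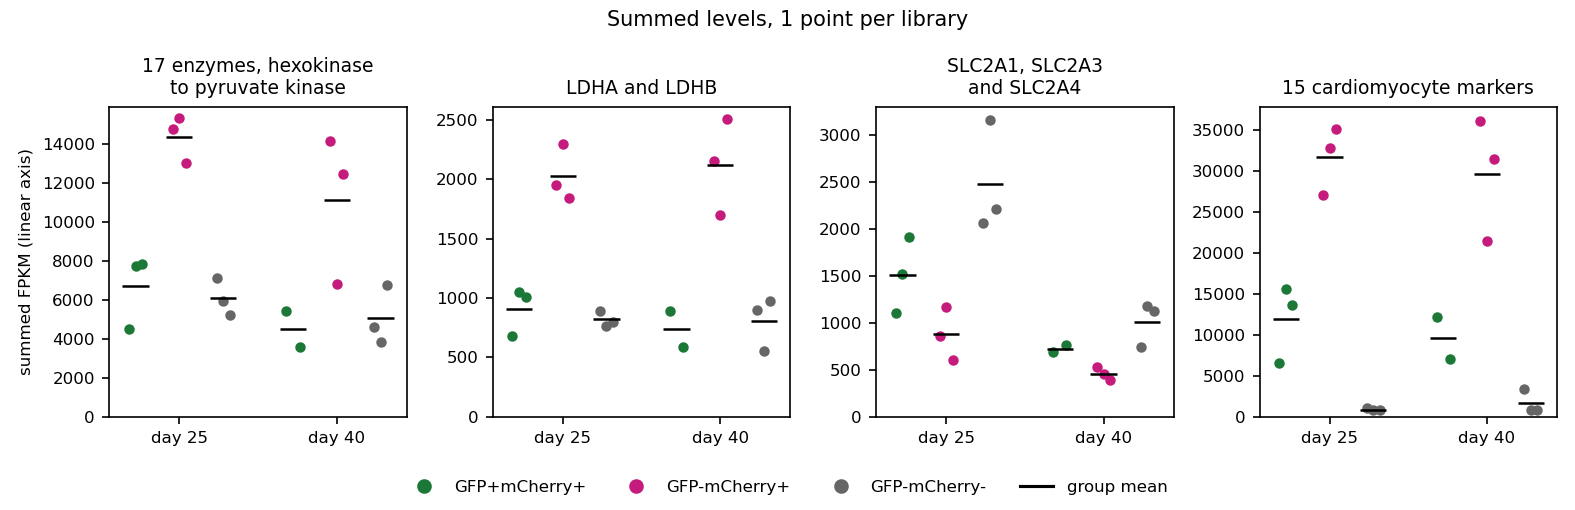
Summed FPKM on a linear axis in each library (1 point per library, line at the group mean) for 17 glycolytic enzyme genes, the lactate dehydrogenases LDHA and LDHB, the glucose transporters SLC2A1, SLC2A3 and SLC2A4, and 15 cardiomyocyte markers. The enzyme sum of GFP-mCherry+ cells at day 25, 13025 to 15326 FPKM, lies above the GFP+mCherry+ and GFP-mCherry- libraries, and the cardiomyocyte marker sum is lowest in the GFP-mCherry- libraries.

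In GFP+mCherry+ cells set against GFP-mCherry+ cells, most of the pathway was lower. At day 25, 19 of the 31 genes were lower and 0 were higher at a limma adjusted p under 0.05, where 8.38% of all tested genes were lower and 12% higher (20.4% in either direction). At day 40, 19 were lower and 2 were higher, SLC2A1 and BPGM, where 9.29% of all tested genes were lower and 16.2% higher (25.5% in either direction). The genes called lower at both days numbered 17 and included every step from hexokinase to pyruvate kinase through at least 1 isoform, with LDHA, LDHB, SLC16A1, PDK1 and GYS1. The median difference of the 31 genes was -1.02 at day 25 and -1.10 at day 40 on the log2(FPKM + 1) scale, against 0.06 and 0.08 over all tested genes. At day 25 the GFP+mCherry+ libraries lay wholly below the GFP-mCherry+ libraries for 22 members and wholly above for 1, where 19.2% and 23% of all tested genes did so. At day 40 this held for 19 members below and 3 above, where 18.9% and 26.5% of all tested genes did so. Differences on this scale are given as the first population minus the second with the standard error of the limma fit. They understate the change of genes with low levels. Of the 15 cardiomyocyte markers 11 were lower and 0 higher at day 25, and 12 lower and 0 higher at day 40, while of the 10 fibroblast and matrix markers 5 and 6 were higher and 0 lower. Markers of other cells moved too. Of 9 epithelial markers 6 were higher and 0 lower at day 25, and 2 higher and 1 lower at day 40. Of 8 endoderm and liver markers 4 were higher at day 25 and 2 at day 40, with 0 lower at either day. Of 5 tested neuron and neural crest markers 3 were higher at day 25 and 2 at day 40, with 0 lower. Of 8 macrophage and other leukocyte markers 1 was higher at day 25 and 6 at day 40, with 0 lower and a median difference of 1.86 at day 40. The part of these cells in the result was not tested.

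The counts of members called changed when single libraries were left out. Here and below, counts over all tested genes are not given for refits without a library. Whether a change concerned the members or all genes cannot be read from the member counts. Without library 1 of the GFP+mCherry+ group, 8 genes were lower and 1 was higher at day 25, and without the GFP-mCherry+ libraries 2 or 5 the counts of genes called were 12 and 11. Without library 13, which left 1 GFP+mCherry+ library that was assumed to vary like the other groups, 2 genes were called at day 40, and without the GFP-mCherry+ library 17 there were 13. ENO3, GYS1, LDHB, PDK1, PYGM, SLC16A1 and TPI1 kept their call at day 25 in every alternative that was run, and ENO3 and LDHB did so at day 40. Values rescaled to the same sum in each library moved the median of all tested genes by 0.16 at day 25 and 0.12 at day 40, and quantile normalization moved it by -0.13 at day 40. At day 25 the counts were 15 lower and 2 higher with rescaled values and 12 lower and 2 higher with quantile normalization, the 2 being SLC2A1 and SLC2A3. Over all tested genes, 1244 were lower and 1779 higher at day 25 with values as deposited. Rescaled values gave 821 lower and 2635 higher over all tested genes, and quantile normalization gave 1390 lower and 1497 higher. At day 40 the counts were 17 lower and 2 higher with rescaled values and 13 lower and 1 higher with quantile normalization. Over all tested genes these settings gave 1057 lower and 2912 higher, and 1835 lower and 1830 higher, against 1379 lower and 2404 higher as deposited. Median-of-ratios scaling gave 19 members lower and 0 higher at day 40, so the calls of SLC2A1 and BPGM were lost. Over all tested genes it gave 1819 lower and 2101 higher.

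**Figure D2:**
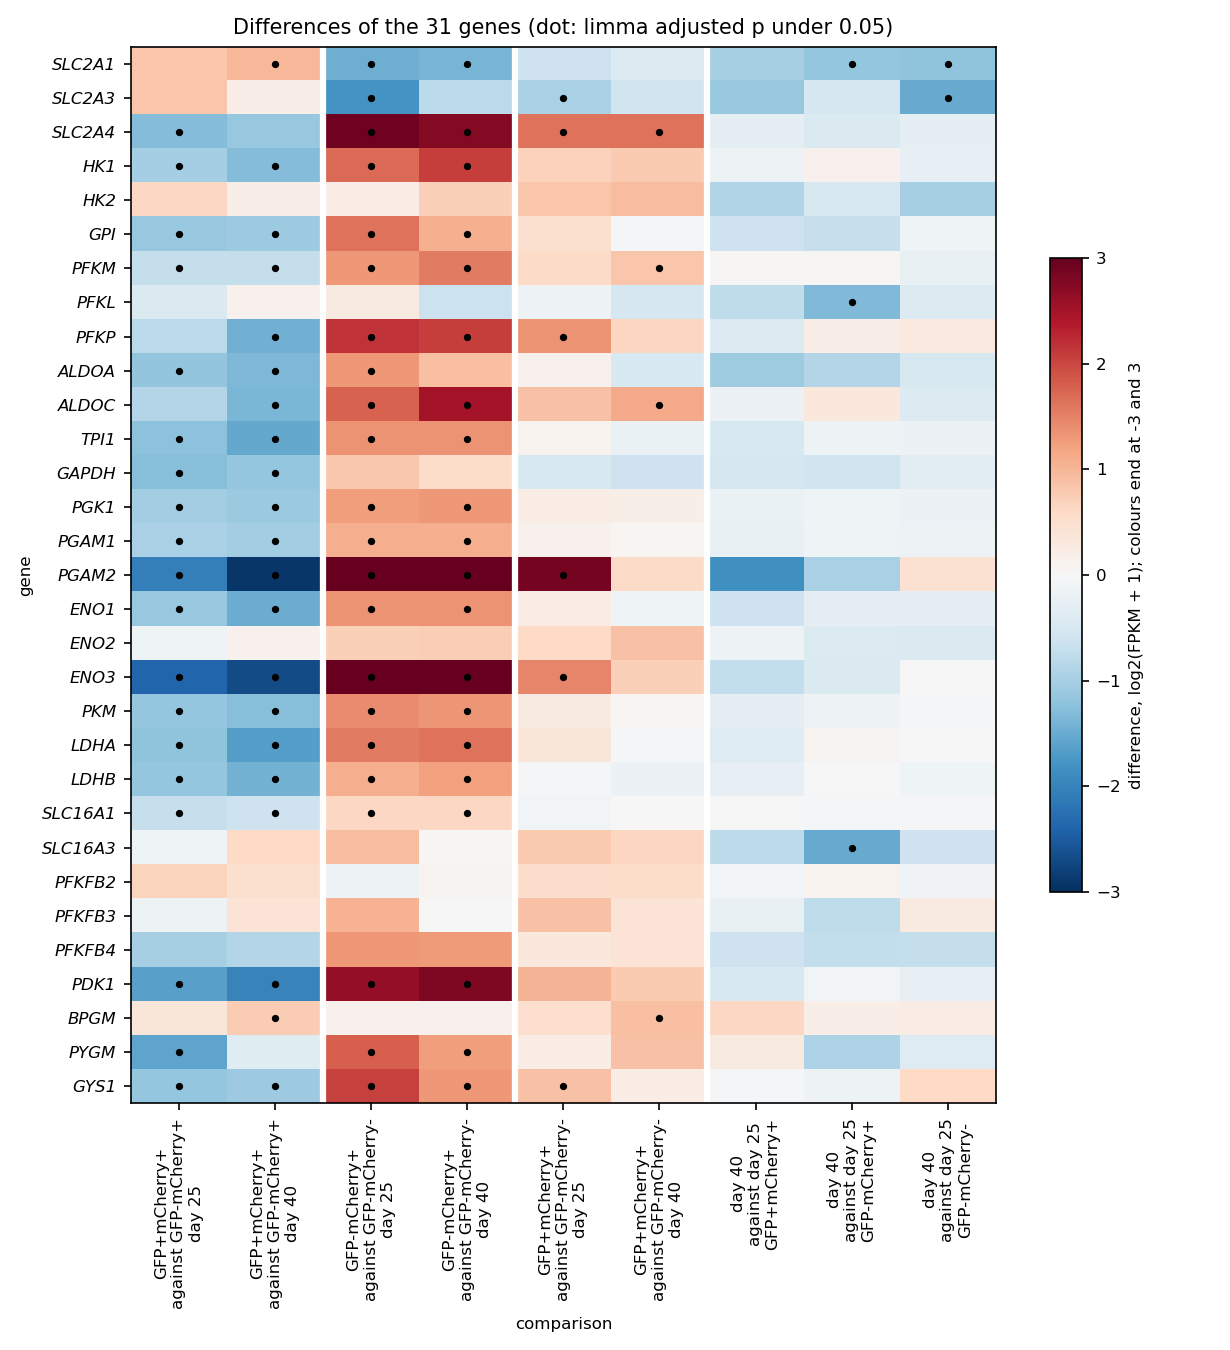
Differences in log2(FPKM + 1) of the 31 genes (rows) in 9 comparisons (columns), red where the first-named population or day was higher and blue where it was lower, with a dot where the limma adjusted p was under 0.05. The first 2 columns are mostly blue and the next 2 mostly red, and both share the GFP-mCherry+ libraries; SLC2A1 and SLC2A3 run against most other genes in the first 4 columns.

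The glucose transporters did not move as a group. SLC2A1, the widely expressed glucose transporter GLUT1 (ENSG00000117394, chr1:43391051-43424530 in hg19, the build of the files), had 849, 989 and 1346 FPKM in GFP+mCherry+ cells, against 581, 833 and 412 FPKM in GFP-mCherry+ cells and 1265, 2163 and 1519 FPKM in GFP-mCherry- cells at day 25. At day 40 its levels were 503 and 547 FPKM in GFP+mCherry+ cells, against 339, 233 and 228 FPKM in GFP-mCherry+ cells and 492, 913 and 749 FPKM in GFP-mCherry- cells. GFP-mCherry+ cells were lowest at both days with no overlap with either other population, and the GFP+mCherry+ and GFP-mCherry- libraries overlapped. The log2 difference of GFP+mCherry+ minus GFP-mCherry+ cells was 0.83 ± 0.30 at day 25 (adjusted p = 0.0575) and 1.00 ± 0.33 at day 40 (adjusted p = 0.0366). GFP-mCherry+ minus GFP-mCherry- cells gave -1.46 ± 0.30 at day 25 (adjusted p = 0.00153) and -1.41 ± 0.30 at day 40 (adjusted p = 0.00192). The summed level of 9 epithelial markers had the same order of populations at both days, with 1776 to 1889.9 FPKM in GFP+mCherry+, 937 to 1271 FPKM in GFP-mCherry+ and 2886 to 3261 FPKM in GFP-mCherry- libraries at day 25, and its part in the result was not tested.

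SLC2A3, the high-affinity glucose transporter GLUT3 (ENSG00000059804, chr12:8071825-8088871), had 251, 525 and 550.0 FPKM in GFP+mCherry+, 266, 299 and 161 FPKM in GFP-mCherry+ and 793, 998 and 692 FPKM in GFP-mCherry- cells at day 25. Its levels at day 40 were 173 and 207 FPKM in GFP+mCherry+, 154, 202 and 145 FPKM in GFP-mCherry+ and 243, 265 and 370.1 FPKM in GFP-mCherry- cells. GFP-mCherry- cells were above both mCherry+ populations at both days, and the mCherry+ populations overlapped. Its difference of GFP-mCherry+ minus GFP-mCherry- cells was -1.80 ± 0.30 at day 25 (adjusted p = 0.000300) and -0.80 ± 0.30 at day 40, which did not pass (adjusted p = 0.0504). Reads of SLC2A3 may be shared with the near-identical SLC2A14, which had a difference of -1.60 ± 0.30 in the same comparison at day 25 (adjusted p = 0.000807).

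SLC2A4, the insulin-responsive transporter GLUT4 of muscle and fat (ENSG00000181856, chr17:7184985-7191576), went the opposite way at a much lower level. It had 5.11, 11.8 and 14.2 FPKM in GFP+mCherry+, 16.2, 32.8 and 28.8 FPKM in GFP-mCherry+ and 2.098, 2.28 and 3.00 FPKM in GFP-mCherry- cells at day 25. The corresponding levels at day 40 were 9.40 and 6.43 FPKM in GFP+mCherry+, 31.7, 13.9 and 13.6 FPKM in GFP-mCherry+ and 4.12, 1.03 and 1.26 FPKM in GFP-mCherry- cells. No 2 of the populations overlapped at either day. It was lower in GFP+mCherry+ than in GFP-mCherry+ cells at day 25 (-1.29 ± 0.42, adjusted p = 0.0380) and had a difference of -1.13 ± 0.46 at day 40 (adjusted p = 0.0858). Against GFP-mCherry- cells it was higher in GFP+mCherry+ cells by 1.62 ± 0.42 at day 25 (adjusted p = 0.0201) and by 1.62 ± 0.46 at day 40 (adjusted p = 0.0336). Its share of the summed FPKM of the 3 glucose transporters stayed small in every group, at most 6.03% in a library.

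The hexokinases differed from each other. HK1, the widely expressed hexokinase that phosphorylates glucose on entry (ENSG00000156515, chr10:71029739-71161638), had 63.8, 132 and 127 FPKM in GFP+mCherry+, 210.4, 204 and 211 FPKM in GFP-mCherry+ and 62.0, 72.3 and 56.7 FPKM in GFP-mCherry- cells at day 25. By day 40 it had 117 and 72.9 FPKM in GFP+mCherry+, 225, 237 and 224 FPKM in GFP-mCherry+ and 76.3, 39.7 and 49.7 FPKM in GFP-mCherry- cells. The GFP-mCherry+ libraries of both days formed a narrow band of 204 to 237 FPKM above all others. The difference of GFP+mCherry+ minus GFP-mCherry+ cells was -1.02 ± 0.27 (adjusted p = 0.0151) at day 25 and -1.30 ± 0.30 (adjusted p = 0.00560) at day 40. HK2, the hexokinase of insulin-responsive tissue, was called in no comparison and varied within the groups of day 25, with 22.2, 117 and 115 FPKM in GFP+mCherry+, 34.1, 85.7 and 27.5 FPKM in GFP-mCherry+ and 15.6, 79.5 and 40.3 FPKM in GFP-mCherry- cells. At day 40 its levels were closer, at 35.4 and 35.5 FPKM in GFP+mCherry+, 33.7, 26.2 and 32.2 FPKM in GFP-mCherry+ and 17.6, 18.8 and 18.3 FPKM in GFP-mCherry- cells, with no overlap between the populations.

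GPI, which turns glucose 6-phosphate into fructose 6-phosphate, had 114, 244 and 248 FPKM in GFP+mCherry+, 404, 479 and 389 FPKM in GFP-mCherry+ and 122, 158 and 132 FPKM in GFP-mCherry- cells at day 25. It was lower in GFP+mCherry+ than in GFP-mCherry+ cells at day 25 (-1.15 ± 0.35, adjusted p = 0.0297) and at day 40 (-1.10 ± 0.39, adjusted p = 0.0493). The phosphofructokinases, which commit sugar to glycolysis, come from 3 genes. PFKM, the muscle form, was lower in GFP+mCherry+ than in GFP-mCherry+ cells, with -0.72 ± 0.20 at day 25 (adjusted p = 0.0185) and -0.72 ± 0.22 at day 40 (adjusted p = 0.0251). PFKP, the platelet form, with the largest mean share of the family in every group (ENSG00000067057, chr10:3108524-3179904), had 211, 330.0 and 295 FPKM in GFP+mCherry+, 451, 531 and 464 FPKM in GFP-mCherry+ and 124, 110.4 and 88.5 FPKM in GFP-mCherry- cells at day 25. These 3 sets of libraries did not overlap. The difference of GFP+mCherry+ minus GFP-mCherry+ cells was -0.81 ± 0.28 at day 25 (adjusted p = 0.0518) and -1.44 ± 0.31 at day 40 (adjusted p = 0.00398). That of GFP+mCherry+ minus GFP-mCherry- cells was 1.35 ± 0.28 at day 25 (adjusted p = 0.00582). PFKL, the liver form, did not pass between populations at either day. It made up a larger share of the phosphofructokinase FPKM in GFP-mCherry- cells, with means of 11.9% in GFP+mCherry+, 9.75% in GFP-mCherry+ and 23.8% in GFP-mCherry- cells at day 25.

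ALDOA, the main aldolase of muscle, had the highest mean level of the members over the 17 libraries, with 1216, 1908 and 2173 FPKM in GFP+mCherry+, 3708, 4165 and 3746 FPKM in GFP-mCherry+ and 1679, 1584 and 1433 FPKM in GFP-mCherry- cells at day 25. At day 40 it had 1191 and 569 FPKM in GFP+mCherry+, 3328, 1038 and 2650.2 FPKM in GFP-mCherry+ and 917, 1024 and 1527 FPKM in GFP-mCherry- cells. All 3 populations overlapped at day 40, while at day 25 every GFP-mCherry+ library was above both other populations, which overlapped each other. The difference of GFP+mCherry+ minus GFP-mCherry+ cells was -1.17 ± 0.38 at day 25 (adjusted p = 0.0386) and -1.34 ± 0.42 at day 40 (adjusted p = 0.0287). ALDOC, the aldolase first known from brain, made up at most 8.22% of the aldolase FPKM in a library. TPI1, which interconverts the triose phosphates, had 235, 341 and 327 FPKM in GFP+mCherry+, 769, 688 and 639.7 FPKM in GFP-mCherry+ and 358, 239 and 242 FPKM in GFP-mCherry- cells at day 25. It was lower in GFP+mCherry+ than in GFP-mCherry+ cells at day 25 (-1.23 ± 0.29, adjusted p = 0.00833) and at day 40 (-1.54 ± 0.32, adjusted p = 0.00315).

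In the lower part of the pathway GFP+mCherry+ cells were lower than GFP-mCherry+ cells at each step. GAPDH, which oxidises glyceraldehyde 3-phosphate and is often used as a reference gene (ENSG00000111640, chr12:6643092-6647537), had 1045, 1469 and 1517 FPKM in GFP+mCherry+, 3326, 3406 and 2967 FPKM in GFP-mCherry+ and 2418, 1687 and 1520.3 FPKM in GFP-mCherry- cells at day 25. Its levels at day 40 were 1192 and 744 FPKM in GFP+mCherry+, 3218, 1283 and 2316 FPKM in GFP-mCherry+ and 1335, 1128 and 1998 FPKM in GFP-mCherry- cells. Its GFP+mCherry+ libraries were below the GFP-mCherry+ ones at both days with a difference of -1.28 ± 0.32 at day 25 (adjusted p = 0.0118) and -1.17 ± 0.36 at day 40 (adjusted p = 0.0259). Unlike most members, GAPDH was not called between GFP-mCherry+ and GFP-mCherry- cells, with 0.81 ± 0.32 at day 25 (adjusted p = 0.0715) and 0.56 ± 0.32 at day 40 (adjusted p = 0.207).

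PGK1, which makes the first ATP of the pathway (ENSG00000102144, chrX:77320684-77384793), had 391, 694 and 679.8 FPKM in GFP+mCherry+, 1267, 1288 and 973 FPKM in GFP-mCherry+ and 591, 470.1 and 422 FPKM in GFP-mCherry- cells at day 25. It was lower in GFP+mCherry+ than in GFP-mCherry+ cells with a difference of -1.03 ± 0.29 at day 25 (adjusted p = 0.0210) and -1.12 ± 0.33 at day 40 (adjusted p = 0.0196). ENO1, the widely expressed enolase, had 511, 1129 and 1095 FPKM in GFP+mCherry+, 2115, 2118 and 1494 FPKM in GFP-mCherry+ and 820.3, 746 and 664 FPKM in GFP-mCherry- cells at day 25. Its difference between the mCherry+ populations was -1.13 ± 0.34 at day 25 (adjusted p = 0.0297) and -1.48 ± 0.39 at day 40 (adjusted p = 0.0108). PKM, the pyruvate kinase that makes the last ATP, had differences of -1.15 ± 0.34 at day 25 (adjusted p = 0.0268) and -1.27 ± 0.38 at day 40 (adjusted p = 0.0235). For PGK1, ENO1 and PKM no GFP+mCherry+ library reached a GFP-mCherry+ library of the same day. ENO2, the enolase of neurons and endocrine cells, was called in no comparison and had 82.3, 261 and 268 FPKM in GFP+mCherry+ and 198, 283 and 132 FPKM in GFP-mCherry+ cells at day 25. Processed pseudogenes can take or lend reads here: GENCODE v29 lists 62 pseudogenes named after GAPDH, 13 after PGAM1, 6 after LDHA, 5 after PKM and 4 each after ENO1 and TPI1. How such reads were assigned is not given in the sources used here.

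**Figure D3:**
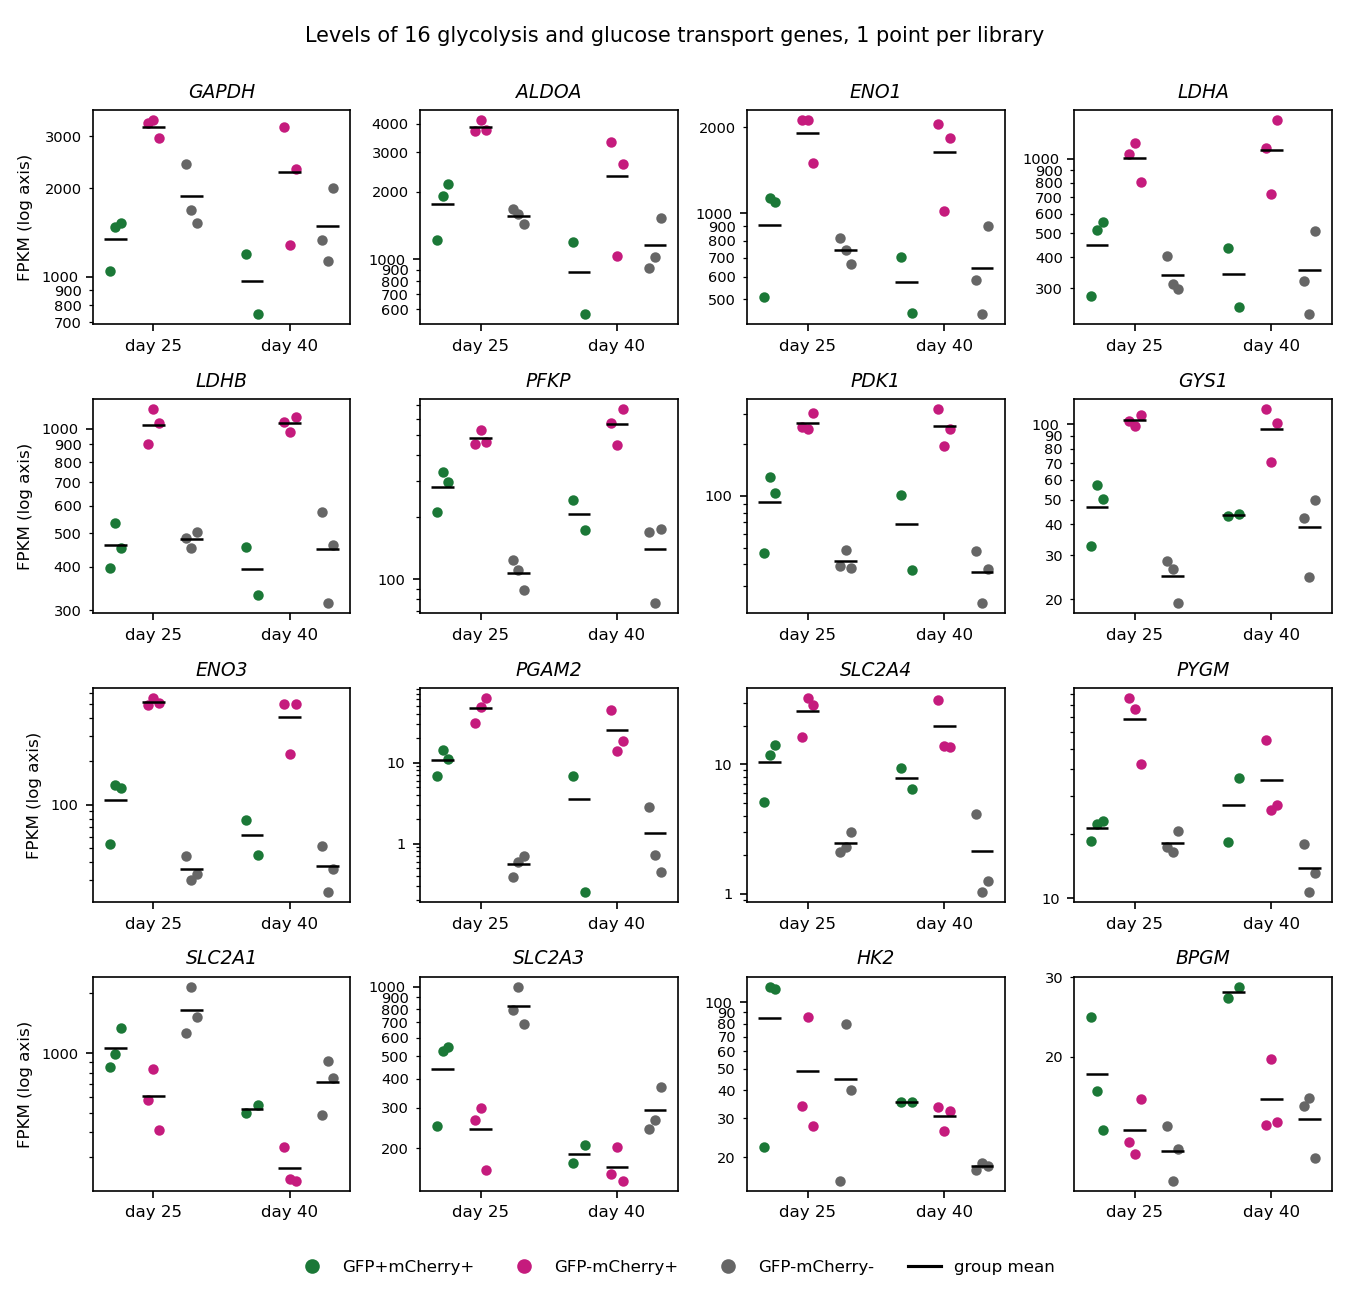
FPKM of 16 genes in each library on log axes (1 point per library, line at the group mean), by population and day. GFP-mCherry+ libraries are highest for genes such as ENO3 (492 to 554 FPKM at day 25) and LDHB, and lowest for SLC2A1 at both days.

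The lactate dehydrogenases LDHA, the form of skeletal muscle, and LDHB, the form of the heart, assemble into tetramers that interconvert pyruvate and lactate. LDHA (ENSG00000134333, chr11:18415934-18429972) had 279, 513 and 555 FPKM in GFP+mCherry+, 1049.7, 1159 and 807 FPKM in GFP-mCherry+ and 406, 312 and 297 FPKM in GFP-mCherry- cells at day 25. By day 40 it had 435 and 252 FPKM in GFP+mCherry+, 1107, 722 and 1436 FPKM in GFP-mCherry+ and 319.9, 235 and 512 FPKM in GFP-mCherry- cells. The difference of GFP+mCherry+ minus GFP-mCherry+ cells was -1.21 ± 0.34 at day 25 (adjusted p = 0.0195) and -1.66 ± 0.38 at day 40 (adjusted p = 0.00492). LDHB (ENSG00000111716, chr12:21788275-21910791) had 397, 533 and 454 FPKM in GFP+mCherry+, 904, 1139 and 1038 FPKM in GFP-mCherry+ and 485, 454 and 502 FPKM in GFP-mCherry- cells at day 25. At day 40 LDHB had 456 and 332 FPKM in GFP+mCherry+, 1048, 980.3 and 1076 FPKM in GFP-mCherry+ and 575, 314 and 462 FPKM in GFP-mCherry- cells. The GFP-mCherry+ libraries stood clear of both other populations at each day. The difference of GFP+mCherry+ minus GFP-mCherry+ cells was -1.16 ± 0.21 at day 25 (adjusted p = 0.00203) and -1.41 ± 0.24 at day 40 (adjusted p = 0.000865). LDHB made up 51.6% ± 6.93 (SD, n = 3) of the pair in GFP+mCherry+, 50.7% ± 5.10 in GFP-mCherry+ and 58.8% ± 4.23 in GFP-mCherry- cells at day 25, with overlap between all 3 populations.

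The start regions of LDHA, PGK1 and PGAM2 show how the members differ in the short motif ACGTG or GCGTG, the core that hypoxia-inducible factors are known to bind. Promoter windows of 300 bases around the start site, from RefSeq on GRCh38.p14, were matched for 26 of the 31 genes; PFKFB2, PYGM, SLC16A1, SLC2A3 and SLC2A4 were not matched. On either strand ACGTG was found in 9 of the 26 windows, against 21.6% of 27305 windows of all genes, GCGTG in 14, against 36.3%, and either of them in 19, against 48.4%. The palindrome CACGTG, which holds ACGTG on both strands and so counts for each, was found in 3 windows, against 7.43%, and the TATA-type motif TATAAA in 4, against 12.0%. LDHA held 5 matches of ACGTG, with its 2 palindromes counted on each strand, and PGK1 held 3 matches and 0 palindromes. PGAM2 held 1 of GCGTG and 1 of TATAAA. The windows of LDHA and PGK1, members of the common pathway that were lower in GFP+mCherry+ than in GFP-mCherry+ cells, and of PGAM2, the muscle form of the mutase, are printed 5′ to 3′ in the direction of the gene, with capitals at ACGTG or GCGTG on either strand and, in PGAM2, at TATAAA. They lie at chr11:18394313-18394612 on the plus strand, chrX:78103998-78104297 on the plus strand and chr7:44065518-44065817 on the minus strand in this order. A match is a string of letters in this window and not a measured site.
LDHA: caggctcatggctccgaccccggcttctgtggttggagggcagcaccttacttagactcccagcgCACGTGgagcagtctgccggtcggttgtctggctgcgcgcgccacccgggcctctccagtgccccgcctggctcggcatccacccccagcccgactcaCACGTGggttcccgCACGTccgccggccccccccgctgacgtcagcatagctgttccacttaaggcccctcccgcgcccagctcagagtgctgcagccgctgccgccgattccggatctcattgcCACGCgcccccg
PGK1: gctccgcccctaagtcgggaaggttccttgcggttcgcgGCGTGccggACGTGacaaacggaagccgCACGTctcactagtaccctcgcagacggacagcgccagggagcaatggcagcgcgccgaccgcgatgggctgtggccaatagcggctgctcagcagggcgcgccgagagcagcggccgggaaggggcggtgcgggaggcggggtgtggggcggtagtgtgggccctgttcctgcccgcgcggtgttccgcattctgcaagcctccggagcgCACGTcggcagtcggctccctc
PGAM2: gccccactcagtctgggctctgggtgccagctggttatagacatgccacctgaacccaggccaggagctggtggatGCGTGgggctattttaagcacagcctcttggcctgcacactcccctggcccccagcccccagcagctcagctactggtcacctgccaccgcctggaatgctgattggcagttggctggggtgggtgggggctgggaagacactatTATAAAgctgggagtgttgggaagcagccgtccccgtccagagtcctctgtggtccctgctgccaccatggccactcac

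Of the lactate transporters, SLC16A1, the widely expressed carrier MCT1, differed over a narrow range. It had 52.4, 43.9 and 47.9 FPKM in GFP+mCherry+, 87.8, 72.7 and 76.0 FPKM in GFP-mCherry+ and 48.8, 49.5 and 54.2 FPKM in GFP-mCherry- cells at day 25. At day 40 its levels were 52.5 and 44.0 FPKM in GFP+mCherry+, 68.5, 75.8 and 81.5 FPKM in GFP-mCherry+ and 49.7, 42.9 and 53.5 FPKM in GFP-mCherry- cells. GFP-mCherry+ libraries were highest with no overlap. The difference between the mCherry+ populations was -0.70 ± 0.15 at day 25 (adjusted p = 0.00428) and -0.63 ± 0.16 at day 40 (adjusted p = 0.0103). SLC16A3, the carrier MCT4 of strongly glycolytic cells, was not called between populations, with 226, 167 and 204 FPKM in GFP+mCherry+, 303, 227 and 149 FPKM in GFP-mCherry+ and 89.8, 133 and 122 FPKM in GFP-mCherry- cells at day 25. SLC16A1 made up 19.6% ± 1.09 (SD, n = 3) of the summed FPKM of both carriers in GFP+mCherry+ cells, against 26.8% ± 6.05 in GFP-mCherry+ and 31.03% ± 4.08 in GFP-mCherry- cells at day 25. At day 40 its share was 29.6% ± 1.21 (SD, n = 2) in GFP+mCherry+, 49.98% ± 12.3 (n = 3) in GFP-mCherry+ and 40.7% ± 17.7 (n = 3) in GFP-mCherry- cells. The highest mean share was thus in GFP-mCherry- cells at day 25 and in GFP-mCherry+ cells at day 40.

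The muscle forms PGAM2, SLC2A4 and ENO3 had the widest relative ranges over the libraries. ENO3, the muscle enolase (ENSG00000108515, chr17:4851386-4860426), had 53.5, 138 and 131 FPKM in GFP+mCherry+, 492, 554 and 510.5 FPKM in GFP-mCherry+ and 44.3, 30.1 and 33.05 FPKM in GFP-mCherry- cells at day 25. At day 40 it had 78.3 and 44.6 FPKM in GFP+mCherry+, 499, 224 and 505 FPKM in GFP-mCherry+ and 51.6, 24.6 and 36.0 FPKM in GFP-mCherry- cells. The 3 populations did not overlap at day 25, and at day 40 the GFP+mCherry+ and GFP-mCherry- libraries did. The difference of GFP+mCherry+ minus GFP-mCherry+ cells was -2.38 ± 0.38 at day 25 (adjusted p = 0.000863) and -2.68 ± 0.42 at day 40 (adjusted p = 0.000575). At day 25 ENO3 was higher in GFP+mCherry+ than in GFP-mCherry- cells by 1.46 ± 0.38 (adjusted p = 0.0208).

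PGAM2, the muscle phosphoglycerate mutase (ENSG00000164708, chr7:44102325-44105186), had 6.73, 14.5 and 11.0 FPKM in GFP+mCherry+, 31.2, 48.2 and 62.9 FPKM in GFP-mCherry+ and 0.383, 0.585 and 0.711 FPKM in GFP-mCherry- cells at day 25. Its levels at day 40 were 6.91 and 0.251 FPKM in GFP+mCherry+, 43.9, 14.0 and 18.6 FPKM in GFP-mCherry+ and 2.84, 0.715 and 0.447 FPKM in GFP-mCherry- cells. The populations were separate at day 25, while at day 40 the 2 GFP+mCherry+ libraries lay on either side of the GFP-mCherry- libraries. GFP+mCherry+ cells were lower than GFP-mCherry+ cells with a difference of -2.05 ± 0.56 at day 25 (adjusted p = 0.0185) and -2.91 ± 0.63 at day 40 (adjusted p = 0.00377). The other phosphoglycerate mutase, PGAM1, was listed at only 10.1, 16.7 and 13.1 FPKM in GFP+mCherry+ and 33.03, 26.3 and 21.4 FPKM in GFP-mCherry+ cells at day 25, far under its neighbours in the pathway. Its many pseudogenes make this level and every share of PGAM2 uncertain. ENO3 and PGAM2 overlap the genes PFN1 and DBNL in the table. SLC2A4, GPI, PFKM, ALDOC, TPI1, ENO2, SLC16A3, PFKFB2 and PFKFB4 overlap other listed genes too. Whether the counting used strand is not given in the sources used here.

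As a share of the enolase FPKM, ENO3 made up 8.27% to 9.02% in GFP+mCherry+, 17.5% to 23.9% in GFP-mCherry+ and 3.20% to 4.63% in GFP-mCherry- libraries at day 25, with no overlap. At day 40 its share was 6.50% and 8.57% in GFP+mCherry+, 16.8% to 20.3% in GFP-mCherry+ and 3.46% to 7.02% in GFP-mCherry- libraries. ENO2 made up 12.7% to 17.9% in GFP+mCherry+, 6.19% to 9.58% in GFP-mCherry+ and 9.59% to 17.4% in GFP-mCherry- libraries at day 25. At day 40 the ENO2 share was 14.6% and 28.3% in GFP+mCherry+, 6.02% to 8.19% in GFP-mCherry+ and 9.59% to 13.4% in GFP-mCherry- libraries. PGAM2 was 39.9% to 46.4% of both phosphoglycerate mutases in GFP+mCherry+, 48.6% to 74.6% in GFP-mCherry+ and 2.45% to 6.18% in GFP-mCherry- libraries at day 25. At day 40 its share was 36.0% and 2.44% in GFP+mCherry+, 34.9% to 67.3% in GFP-mCherry+ and 2.56% to 22.6% in GFP-mCherry- libraries. The first of these GFP+mCherry+ libraries lay within the GFP-mCherry+ range and the second below every other library of day 40. These shares were described and not tested. Of 11 skeletal muscle markers in the table, the factor MYF5 was listed at 0 in every library. MYOD1, MYF6, PAX7 and MYH8 reached at most 0.215, 0.136, 0.0503 and 0.0451 FPKM. MYOG, TNNI2, MYH3, TNNC2 and TNNT3 reached 1.86, 1.84, 2.33, 2.87 and 20.5 FPKM. The muscle creatine kinase CKM, which heart muscle expresses too, reached 483 FPKM. In GFP-mCherry+ cells of day 25, 5 of the 11 averaged at least 1 FPKM. The list's sum, CKM included, was 18.5 to 77.0 FPKM in GFP+mCherry+, 326 to 500.2 FPKM in GFP-mCherry+ and 6.92 to 8.67 FPKM in GFP-mCherry- libraries at day 25.

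**Figure D4:**
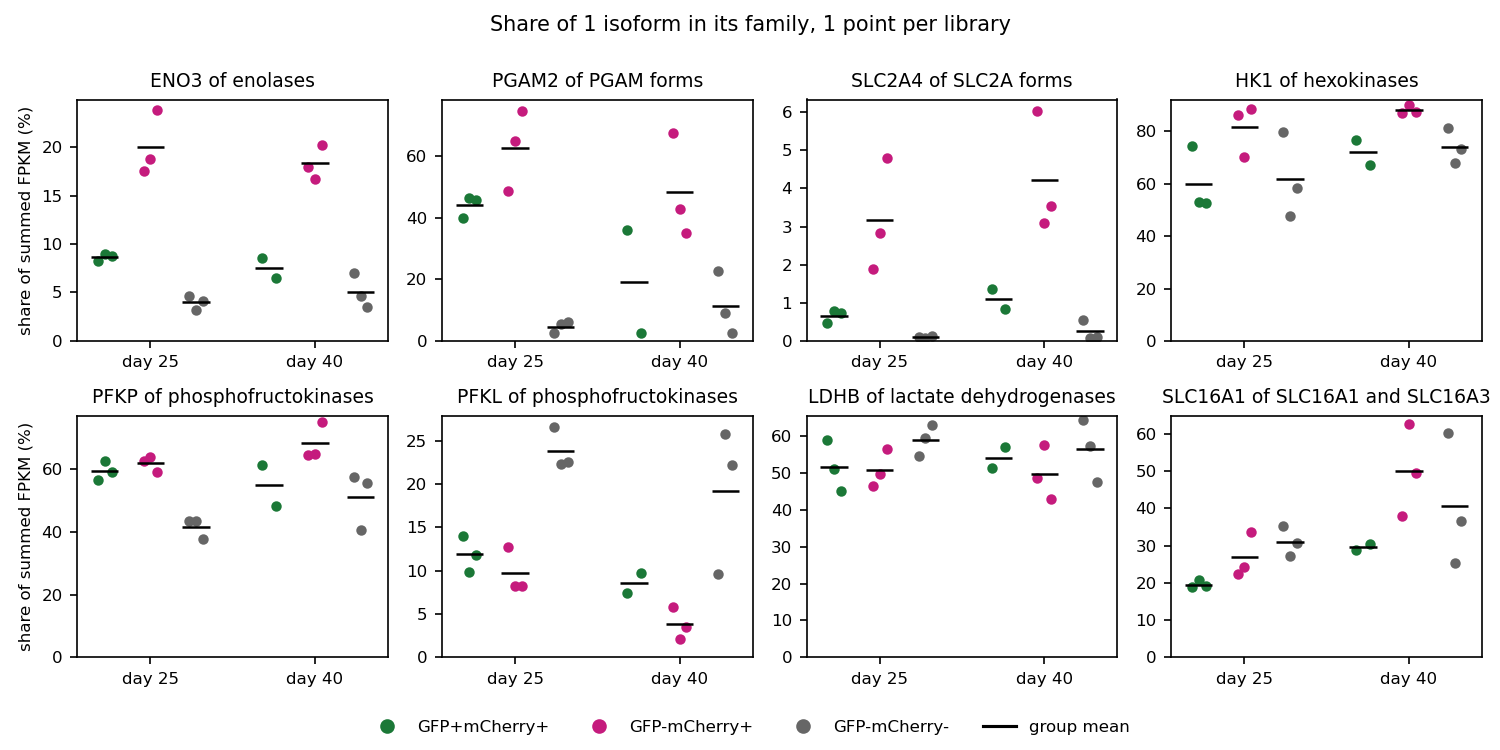
Share of 1 isoform in the summed FPKM of its family (%, linear axis) in each library, with a line at the group mean, for 8 isoforms. ENO3, PGAM2 and SLC2A4 have their largest mean shares in GFP-mCherry+ cells (20.1% for ENO3 at day 25), PFKL has its largest in GFP-mCherry- cells (23.8% at day 25), and the shares of LDHB overlap between the populations.

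Among the regulators, PDK1, the kinase that switches off pyruvate dehydrogenase and so keeps pyruvate from the mitochondria (ENSG00000152256, chr2:173420100-173489823), followed the enzymes. It had 46.3, 128 and 103 FPKM in GFP+mCherry+, 251, 246 and 303 FPKM in GFP-mCherry+ and 39.2, 48.5 and 37.8 FPKM in GFP-mCherry- cells at day 25. By day 40 it had 101 and 37.1 FPKM in GFP+mCherry+, 319.9, 195 and 246 FPKM in GFP-mCherry+ and 47.5, 23.7 and 37.7 FPKM in GFP-mCherry- cells. The GFP-mCherry+ libraries were above all others. The difference between the mCherry+ populations was -1.63 ± 0.37 at day 25 (adjusted p = 0.00722) and -2.00 ± 0.42 at day 40 (adjusted p = 0.00312). PFKFB2, PFKFB3 and PFKFB4, which set the level of fructose 2,6-bisphosphate and with it the pace of phosphofructokinase, were called in no comparison. PFKFB3 had 33.6, 56.7 and 54.2 FPKM in GFP+mCherry+, 80.2, 70.9 and 24.8 FPKM in GFP-mCherry+ and 26.9, 32.6 and 17.5 FPKM in GFP-mCherry- cells at day 25. With HK2 and ENO2 they were the 5 members called nowhere.

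BPGM, which makes the 2,3-bisphosphoglycerate that red cells use to release oxygen, was higher in GFP+mCherry+ cells than in both other populations at day 40. It had 27.0 and 28.6 FPKM in GFP+mCherry+, 14.1, 19.8 and 14.3 FPKM in GFP-mCherry+ and 15.5, 16.2 and 11.9 FPKM in GFP-mCherry- cells at day 40, with both GFP+mCherry+ libraries above all others. The difference from GFP-mCherry+ cells was 0.77 ± 0.24 (adjusted p = 0.0274) and that from GFP-mCherry- cells 0.90 ± 0.24 (adjusted p = 0.0234). Neither call was kept in every alternative run. Over the alternatives these differences ranged from 0.66 to 0.92 and from 0.77 to 0.98, in this order. At day 25 it had 24.4, 16.8 and 13.7 FPKM in GFP+mCherry+, 12.9, 12.2 and 16.1 FPKM in GFP-mCherry+ and 14.0, 10.6 and 12.5 FPKM in GFP-mCherry- cells. The GFP+mCherry+ and GFP-mCherry+ libraries overlapped. The 11 erythroid markers summed to 5.30 and 7.01 FPKM in the GFP+mCherry+ libraries of day 40, 3.54 to 6.29 FPKM in GFP-mCherry+ and 2.62 to 10.9 FPKM in GFP-mCherry- libraries. Of the 11, 3 averaged at least 1 FPKM in GFP+mCherry+, 1 in GFP-mCherry+ and 1 in GFP-mCherry- cells of day 40. In both GFP+mCherry+ libraries of that day 6 of them were listed at 0, HBA1, HBA2, HBB, HBG1, GYPB and SLC4A1. The 8 macrophage and other leukocyte markers summed to 349 and 137 FPKM in the GFP+mCherry+ libraries of day 40, 43.9 to 73.8 FPKM in GFP-mCherry+ and 28.2 to 40.3 FPKM in GFP-mCherry- libraries. Of these 8, 6 were higher in GFP+mCherry+ than in GFP-mCherry+ cells at day 40 and 7 higher than in GFP-mCherry- cells, with 0 lower. None of the 8 was listed at 0 throughout a group. The part of erythroid and leukocyte markers in the BPGM result was not tested.

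The glycogen genes were lower in GFP+mCherry+ than in GFP-mCherry+ cells at day 25. PYGM, the muscle glycogen phosphorylase, had 18.5, 22.2 and 23.1 FPKM in GFP+mCherry+, 86.3, 77.0 and 42.4 FPKM in GFP-mCherry+ and 17.4, 16.5 and 20.6 FPKM in GFP-mCherry- cells at day 25. At day 40 it had 18.3 and 36.6 FPKM in GFP+mCherry+, 54.6, 25.8 and 27.2 FPKM in GFP-mCherry+ and 17.9, 10.7 and 13.1 FPKM in GFP-mCherry- cells, with library 13 above 2 of the GFP-mCherry+ libraries. Its difference of GFP+mCherry+ minus GFP-mCherry+ cells was -1.59 ± 0.32 at day 25 (adjusted p = 0.00351) and -0.37 ± 0.36 at day 40 (adjusted p = 0.475). GYS1, the glycogen synthase of muscle, had 32.8, 57.4 and 50.3 FPKM in GFP+mCherry+, 103, 98.8 and 109 FPKM in GFP-mCherry+ and 28.3, 26.6 and 19.3 FPKM in GFP-mCherry- cells at day 25. GYS1 was lower in GFP+mCherry+ than in GFP-mCherry+ cells with a difference of -1.17 ± 0.26 at day 25 (adjusted p = 0.00635) and -1.09 ± 0.29 at day 40 (adjusted p = 0.0124).

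In GFP-mCherry+ cells set against GFP-mCherry- cells, which shares the GFP-mCherry+ libraries with the comparison before, the pathway was mostly higher. At day 25, 20 of the 31 genes were higher and 2 lower, SLC2A1 and SLC2A3, where 12.1% of all tested genes were higher and 16.4% lower (28.5% in either direction). At day 40, 19 were higher and 1 lower, SLC2A1, where 13.3% of all tested genes were higher and 18.5% lower (31.9% in either direction). All 19 genes higher at day 40 were also higher at day 25. ALDOA was called at day 25 alone, with 1.31 ± 0.38 at day 25 (adjusted p = 0.0161) and 0.89 ± 0.38 at day 40 (adjusted p = 0.0847). The median difference of the members was 1.31 at day 25 and 1.25 at day 40, against -0.10 and -0.09 over all tested genes. The GFP-mCherry+ libraries lay wholly above the GFP-mCherry- libraries for 23 members and wholly below for 2 at day 25, where 20.4% and 29.3% of all tested genes did so. At day 40 they did so for 19 and 2 members, where 17.5% and 22.6% of all tested genes did. Leaving out single libraries gave 21 to 23 calls at day 25 and 18 to 24 at day 40. The largest differences were those of PGAM2 (4.91 ± 0.56 at day 25, adjusted p = 1.34e-05, and 3.48 ± 0.56 at day 40, adjusted p = 0.000257) and ENO3 (3.84 ± 0.38, adjusted p = 3.27e-06, and 3.39 ± 0.38, adjusted p = 1.34e-05). SLC2A4, PDK1 and PFKP followed at day 25 with 2.91, 2.64 and 2.16. All 15 cardiomyocyte markers were higher in this comparison at day 25 and 14 at day 40. Of 9 epithelial markers 8 were lower at each day, of 10 fibroblast and matrix markers 7 at day 25 and 8 at day 40, and of 6 endothelial markers 5 at each day. Of 8 endoderm and liver markers 1 was lower at day 25 and 5 at day 40. In these 4 lists 0 were higher at either day. The part of these cells in the result was not tested.

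Between GFP+mCherry+ cells and GFP-mCherry- cells, 6 of the 31 genes were called at day 25 and 4 at day 40. At day 25, 5 genes were higher, SLC2A4, PFKP, PGAM2, ENO3 and GYS1, and 1 was lower, SLC2A3, where 5.78% of all tested genes were higher and 5.27% lower (11.1% in either direction). At day 40, 4 were higher, SLC2A4, PFKM, ALDOC and BPGM, and 0 lower, where 7.04% of all tested genes were higher and 4.76% lower (11.8% in either direction). The GFP+mCherry+ libraries lay wholly above for 9 members and wholly below for 2 at day 25, where 15.7% and 20.1% of all tested genes did so. At day 40 they did so for 7 and 1 members, where 21.8% and 19.8% of all tested genes did. PGAM2 had the largest difference at day 25, 2.86 ± 0.56 (adjusted p = 0.00411), and GYS1 had 0.88 ± 0.26 (adjusted p = 0.0412). The median difference of the 31 genes was 0.47 at day 25 and 0.40 at day 40, against -0.03 and 0.02 over all tested genes. The difference was above 0 for 25 of them at day 25 and for 20 at day 40. LDHB had -0.07 ± 0.21, TPI1 0.11 ± 0.29 and PGAM1 0.12 ± 0.29 at day 25. The calls depended on the setting: 6 were higher and 0 lower at day 25 with rescaled values and with quantile normalization. Over all tested genes, rescaled values gave 980 higher and 551 lower and quantile normalization 871 higher and 888 lower, against 858 and 783 as deposited. Sample quality weights gave 20 members higher and 1 lower, and their count over all tested genes is not given here. Without 1 library the counts called were 2 to 8 at day 25, with 2 calls without library 4 or 6 and 3 without library 3, 7 or 9. At day 40 they were 0 to 5, with 2 calls without library 10, 1 without library 13 or 15 and 0 without library 18. PFKP and PGAM2 kept their call at day 25 in every alternative run.

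Between day 40 and day 25, at most 3 members were called in a population. In GFP+mCherry+ cells 0 of the 31 genes were called by limma, where 2.18% of all tested genes were higher and 1.88% lower (4.06% in either direction). At a limma unadjusted p under 0.05 there were 5 members, against 2975 of all 14845 tested genes. Both day-40 libraries lay above those of day 25 for 1 member and below for 5, where 13% and 20.9% of all tested genes did so. In GFP-mCherry+ cells 0 were higher and 3 lower, SLC2A1, PFKL and SLC16A3, where 0.633% of all tested genes were higher and 3.91% lower (4.55% in either direction). The day-40 libraries of this population lay wholly above those of day 25 for 1 member and wholly below for 4, where 6.24% and 14.2% of all tested genes did so. SLC2A1 had 339, 233 and 228 FPKM at day 40, against 581, 833 and 412 FPKM at day 25, a difference of -1.15 ± 0.30 (adjusted p = 0.0360). PFKL had 51.6, 15.0 and 31.8 FPKM at day 40, against 91.9, 69.0 and 65.0 FPKM at day 25, a difference of -1.32 ± 0.35 (adjusted p = 0.0422). SLC16A3 had 112, 45.3 and 83.5 FPKM at day 40, against 303, 227 and 149 FPKM at day 25, a difference of -1.52 ± 0.41 (adjusted p = 0.0448). For each of these genes all 3 libraries of day 40 were below all 3 of day 25. However, 0 calls were left without library 2, 5, 14 or 17, and 0 with median-of-ratios scaling or quantile normalization.

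In GFP-mCherry- cells 0 members were higher and 2 lower at day 40, SLC2A1 and SLC2A3, where 1.56% of all tested genes were higher and 2.32% lower (3.87% in either direction). The day-40 libraries lay wholly above for 0 members and wholly below for 2, where 9.44% and 16.9% of all tested genes did so. SLC2A3 had 243, 265 and 370.1 FPKM at day 40, against 793, 998 and 692 FPKM at day 25, a difference of -1.50 ± 0.30 (adjusted p = 0.0115), and SLC2A1 had a difference of -1.21 ± 0.30 (adjusted p = 0.0344). Without library 6 there were 0 calls, and without library 9, 12, 15 or 18 there was 1. In each of the 3 populations every day-40 library was below every day-25 library for SLC2A1, with -0.99 ± 0.33 in GFP+mCherry+ cells, which did not pass (adjusted p = 0.104). In GFP+mCherry+ cells the counts called were 2 without library 1 and 1 without library 10. The change between the days of the difference between the mCherry+ populations was called for 0 of the 31 genes by limma, where 0.0135% of all tested genes were called. At a limma unadjusted p under 0.05 there was 1 member, against 978 of all 14845 tested genes. That member was PYGM, at 1.22 ± 0.48 (unadjusted p = 0.0216, adjusted p = 0.632).

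Genes next to the pathway were counted list by list. The background for these counts is that of all tested genes in GFP+mCherry+ against GFP-mCherry+ cells, 12% higher and 8.38% lower at day 25, and 16.2% higher and 9.29% lower at day 40. The pyruvate carriers and pyruvate dehydrogenase genes, which take pyruvate into the mitochondria, had 6 of 10 lower and 1 higher in GFP+mCherry+ than in GFP-mCherry+ cells at day 25 and 6 lower and 0 higher at day 40. DLAT, a core subunit of pyruvate dehydrogenase, had -1.13 ± 0.22 at day 25 (adjusted p = 0.00290), and the pyruvate carrier MPC2 had -0.85 ± 0.21 (adjusted p = 0.0105). PDP1, the phosphatase that reverses the action of PDK1, was the gene that was higher, by 0.99 ± 0.29 (adjusted p = 0.0240). Of 10 genes of the shuttles that carry cytosolic reducing power into mitochondria, 7 were lower and 0 higher at each day, such as the malate dehydrogenase MDH1 with -1.31 ± 0.22 at day 25 (adjusted p = 0.00136) and the glycerol phosphate dehydrogenase GPD1L with -1.47 ± 0.21 (adjusted p = 0.000404). Of 22 tested further genes of glycogen metabolism, 9 were lower and 0 higher at day 25, and 8 lower and 1 higher at day 40. PPP1R3A, which targets phosphatase to glycogen in muscle, had -2.27 ± 0.39 at day 25 (adjusted p = 0.00157), and PYGB, the brain form of glycogen phosphorylase, had -1.37 ± 0.23 (adjusted p = 0.00126).

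In the pentose phosphate pathway, which branches off at glucose 6-phosphate, 0 of 7 genes were called at day 25 between the mCherry+ populations and 1 was lower at day 40, PGD, with -0.91 ± 0.29 (adjusted p = 0.0301). Its transketolase TKT was lower in GFP-mCherry+ than in GFP-mCherry- cells with a difference of -1.70 ± 0.23 at day 25 (adjusted p = 6.69e-05) and -1.48 ± 0.23 at day 40 (adjusted p = 0.000223), where the glycolytic enzymes were higher. Of 12 tested genes among other isoforms and regulators of glycolysis, 3 were lower and 1 higher at day 25 in GFP+mCherry+ against GFP-mCherry+ cells, and 2 lower and 3 higher at day 40. PDK4, the kinase form of fasting and fat use, was higher by 1.03 ± 0.31 at day 25 (adjusted p = 0.0278) and 2.15 ± 0.34 at day 40 (adjusted p = 0.000651), opposite to PDK1. PDK4 had only 11.4 and 5.89 FPKM in GFP+mCherry+ and 1.29, 1.56 and 0.540 FPKM in GFP-mCherry+ cells at day 40. Of 18 tested other sugar and monocarboxylate carriers, 3 were higher and 1 lower at day 25, and 4 higher and 1 lower at day 40. The lower one was SLC5A1, the sodium-coupled glucose carrier, with -1.45 ± 0.26 at day 25 (adjusted p = 0.00194).

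Genes of the hypoxia response, which is known to raise many glycolytic genes, were counted in 2 lists. The lists hold RNA levels only, and the part of hypoxia in the result was not tested. Of 9 hypoxia factor genes 2 were higher and 1 lower in GFP+mCherry+ than in GFP-mCherry+ cells at day 25, and 1 higher and 0 lower at day 40. HIF1A had 104, 116 and 112 FPKM in GFP+mCherry+ and 91.9, 102 and 139.9 FPKM in GFP-mCherry+ cells at day 25, a difference of 0.01 ± 0.19 (adjusted p = 0.968). EPAS1, which encodes HIF-2 alpha, was higher by 1.89 ± 0.35 at day 25 (adjusted p = 0.00238) and 1.94 ± 0.40 at day 40 (adjusted p = 0.00276). Of 17 hypoxia-induced genes outside glycolysis 4 were higher and 1 lower at day 25, and 3 were higher and 2 lower at day 40. BNIP3, a mitophagy receptor, was lower with a difference of -1.53 ± 0.33 at day 25 (adjusted p = 0.00485). LOX, a collagen cross-linking enzyme, was higher with a difference of 1.76 ± 0.41 (adjusted p = 0.00796). Of 26 glucose-sensing and muscle metabolic regulators, 1 was higher and 4 lower at day 25, and 6 higher and 4 lower at day 40. Over all tested genes 12% were higher and 8.38% lower at day 25, and 16.2% and 9.29% at day 40. MYC, a factor known to activate glycolytic genes, was higher with a difference of 1.19 ± 0.33 at day 25 (adjusted p = 0.0191). MEF2A, a muscle transcription factor, was lower with a difference of -0.88 ± 0.20 (adjusted p = 0.00700).

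**Figure D5:**
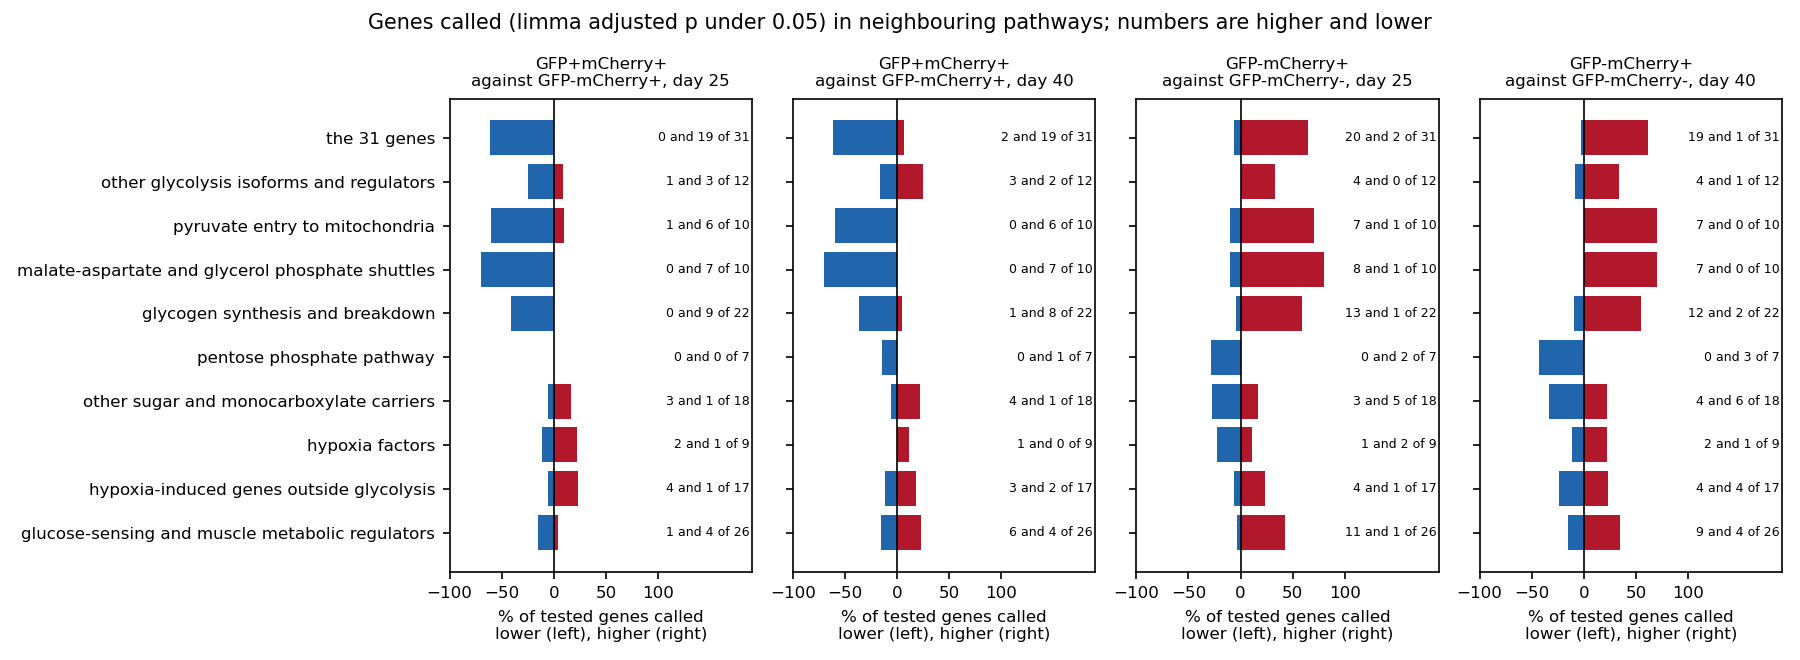
Percent of the tested genes of each pathway called lower (left, blue) or higher (right, red) at a limma adjusted p under 0.05 in 4 comparisons, with the numbers of genes higher and lower printed beside the bars. The 31 glycolysis and transport genes, pyruvate entry, the shuttles and glycogen genes lean to the same side in each panel, and the pentose phosphate genes (0 of 7 called in the first panel) do not.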

How the data were processed

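RNA-seq expression came from 17 libraries of sorted cells, whose libraries were built, per the labels' protocols, with TruSeq RNA reagents. The authors deposited FPKM values per gene; the table's header gives no unit, which was read from the values and the tool named. Per the submitters' processing notes, bcl2fastq 2.19, cutadapt, STAR 2.5.2b, Cufflinks 2.1.1 and hg19 were involved, with order and settings not given in the sources used here. Depth was not used here, so no counting intervals were computed. Columns were matched to samples by the library number in their header. Rows sharing a gene name were merged (20368 rows with 71 duplicate identifiers became 20218 genes).

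The 14845 genes with at least 1 FPKM in 2 or more libraries were tested on log2(FPKM + 1). Using limma 3.58.1 in R 4.3.3, 1 mean was fitted for each of 6 groups over all libraries, with a variance trend and 11 residual degrees of freedom. Benjamini-Hochberg adjustment ran over all tested genes of each of 10 comparisons, and an adjusted p under 0.05 was called. Whether the libraries within a group are separate cultures is not stated, so the p-values reflect only how much these libraries vary, and that variation may be technical.

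The members and gene lists were chosen with earlier results of these data known. Members called anywhere (26) could be named with every library's value, and from each other pathway list up to 4 genes with the smallest adjusted p in a comparison. PDP1, SLC2A14, HIF1A and members called nowhere were named outside this rule, after their values were seen. Isoform shares were computed from FPKM within a library. The fit was tested on simulated data. Alternatives were a pseudocount of 0.1, no filter, a filter at 5 FPKM, rescaling libraries to 1 common sum, quantile normalization, scaling by median of ratios, fitting the compared groups alone, a block on runs of 3 consecutive library numbers, sample quality weights, isolated values of 0 set to missing, libraries 13 and 14 left out together, and every library left out in turn.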

Additional observations from a re-analysis of the deposited data

How the results depend on the processing

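No called value reversed its sign under any alternative run. The pseudocount, the filter at 5 FPKM and missing isolated zeros changed no count of members called by more than 1.5 times. With no filter 2 members were called between GFP+mCherry+ and GFP-mCherry- cells at day 40, and between the days 0 in GFP-mCherry+ and 1 in GFP-mCherry- cells. Between the days, rescaled values gave 1 in each of these populations, and median-of-ratios scaling and quantile normalization each gave 0 in GFP-mCherry+ and 1 in GFP-mCherry- cells. With only the compared groups in the fit there were 13 calls between the mCherry+ populations at day 40, 0 between GFP+mCherry+ and GFP-mCherry- cells at day 40, and 0 and 1 between the days in GFP-mCherry+ and GFP-mCherry- cells. Sample quality weights gave 21 and 2 calls between GFP+mCherry+ and GFP-mCherry- cells at days 25 and 40, and 5 between the days in GFP+mCherry+ cells. Without libraries 13 and 14 there were 7 calls between the mCherry+ populations and 1 between GFP+mCherry+ and GFP-mCherry- cells at day 40, and 0 between the days in GFP-mCherry+ cells. The member counts in this section are given without the counts over all tested genes in the same setting. Whether a change concerned the members or all genes cannot be read from them. The cause was not tested.

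Leaving out single libraries gave 9 to 18 calls at day 25 and 2 to 20 at day 40 between the mCherry+ populations, 21 to 23 and 18 to 24 between GFP-mCherry+ and GFP-mCherry- cells, and 2 to 8 and 0 to 5 between GFP+mCherry+ and GFP-mCherry- cells. Between the days it gave 0 to 2 in GFP+mCherry+, 0 to 4 in GFP-mCherry+ and 0 to 2 in GFP-mCherry- cells, and 0 for the change of the difference. The labels give no shared replicate numbers. A replicate block on sets of 3 consecutive library numbers gave 21 and 20 calls between the mCherry+ populations at days 25 and 40, 25 and 23 between GFP-mCherry+ and GFP-mCherry- cells, 9 and 4 between GFP+mCherry+ and GFP-mCherry- cells, and 0 for the change; no paired analysis was possible between the days, whose libraries share no set. Of 550 isoform share values, 7 moved by more than 1 SD. FPKM carry no depth, so precision at low levels is unknown.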
